A study of Mus musculus with 71 samples.

Results

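Butyrophilin and butyrophilin-like genes encode membrane proteins of the immunoglobulin superfamily, related to the B7 costimulatory ligands. The 7 mouse genes described here were Btnl1, Btnl2, Btnl4, Btnl6, Btnl9, Btn1a1 and Btn2a2, taken as a list of named genes from the 24475 gene identifiers of each of 3 bulk RNA-sequencing tables. All 7 were found in every table. Their levels were read by tissue, by segment of the small intestine and by cell fraction, their change in Btnl2-KO mice was read in each, and 6 single-cell libraries were read beside them.

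Btnl1, Btnl4 and Btnl6 are known as products of mature enterocytes, where Btnl1 and Btnl6 pair at the cell surface and engage γδ T cells that carry Vγ7 receptors. Btnl2 lacks the intracellular B30.2 domain found in most of the family and is known as an inhibitor of T cell activation. Btn1a1 was named for its role in milk fat secretion, Btn2a2 is found on antigen-presenting cells, and Btnl9 is known from vascular and adipose tissue.

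The series compared Btnl2-KO with WT C57BL/6 mice by RNA-sequencing. Btnl2-KO mice (genotype Btnl2-/-) carried a LacZ cassette in frame with the Btnl2 start codon, with a selection cassette after it, and the allele is null in every cell type. WT mice were littermates from heterozygous crosses, and females of both genotypes were cohoused. Whole tissue of the small intestine (SI) gave 7 Btnl2-KO and 7 WT libraries, and that of the colon 7 and 6, from mice that the labels mark YNG without an age in weeks. The intestinal epithelial cell (IEC) fraction of mice aged 7 weeks gave 2 Btnl2-KO and 3 WT libraries of the duodenum, 3 and 3 of the jejunum, and 3 and 2 of the ileum. Sorted γδ intraepithelial lymphocytes (IELs) of mice aged 10 weeks, each library a pool of 2 mice, gave 3 Btnl2-KO and 4 WT libraries of the duodenum, 4 and 4 of the jejunum, and 3 and 4 of the ileum. The single-cell libraries were 1 per genotype and segment, each from γδ IELs of 8 mice aged 8 to 10 weeks. The study describes sorted γδ IEL samples that were divided between bulk and single-cell sequencing, so these libraries may share mice with the bulk IEL libraries and are not an independent check of them. Where nothing ties a library to its own animal, p-values measure only the spread between libraries.

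Bulk libraries held 13444964 to 38258478 counts. Levels are given as CPM (counts scaled to library size after TMM normalisation), and the Btnl2-KO change as a log2 fold change with its standard error (SE) from edgeR's quasi-likelihood test. A gene was called at a false discovery rate (FDR) below 0.05 over all genes tested and a fold change above 1.5. In bulk libraries, fewer cells of a type and less RNA per cell cannot be told apart.

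Some libraries went against their labels or stood apart. Among IEC libraries, the jejunal Btnl2-KO library 1003474 held 18.8 CPM of Btnl2, and 0.08 CPM of a transcript without a gene symbol that stood at 5.29 to 20.4 CPM in the other Btnl2-KO IEC libraries and at most 0.54 in WT ones. Fabp6, an ileal bile acid binding protein, stood at 467 CPM in that library and at 221.5 in the duodenal Btnl2-KO library 1003459, which also held 5.48 CPM of Btnl2, whereas the ileal Btnl2-KO library 1003481 held 0.24 CPM of Fabp6. In SI tissue, the Btnl2-KO library 964939 and the WT library 964950 held 435.6 and 105.7 CPM of Fabp6 against 1175 to 3962 in the other 12, and 2 WT libraries (964947 and 964948) held 843 and 1639 CPM of the colonic gene Car1 against at most 0.61 in the others. In the IEL table, the jejunal Btnl2-KO library 1105592 and the ileal Btnl2-KO library 1105585 were lowest in the summed level of 12 pan-epithelial genes (602 and 992 CPM, against 1998 to 8826 in WT libraries), and the jejunal Btnl2-KO library 1105593 held 32.7 CPM of Fabp6. Btnl2-KO changes that rest on these libraries are given with and without them.

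Btnl2, Btnl1, Btnl4 and Btnl6 lie together on chromosome 17. On GRCm38.p6, Btnl2 spans chr17:34354789-34369492 and Btnl1 chr17:34377123-34386162, both on the plus strand and 7.63 kb apart. Btnl4 (chr17:34468410-34477428) and Btnl6 (chr17:34507870-34518776) lie on the minus strand, with the pseudogene Btnl5-ps (chr17:34487405-34497429) between them, and 82.25 kb separate Btnl1 from Btnl4. The block from Btnl2 to Btnl6 covers 164.0 kb. Btnl9 lies elsewhere, at chr11:49168325-49187089, and Btn1a1 and Btn2a2 lie at chr13:23456984-23465914 and chr13:23477049-23488858, all on the minus strand.

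RefSeq promoter windows (250 bases before to 50 after a transcript start, GRCm38.p6) were at hand for 6 of the 7 genes. The transcript starts used for Btnl2 and Btnl1 lay within 33 bases of the 5′ ends of the gene spans given above. Those used for Btnl4 and Btnl6 lay inside the spans, 1491 and 1424 bases downstream of the 5′ ends. GENCODE also starts a transcript at each of these 4 positions. The windows of the 4 genes of the block are shown because Btnl2 and Btnl1 were the pair that fell together in the colon, and because Btnl4 and Btnl6 resemble each other most. They are written 5′ to 3′ along each gene's strand, and capitals mark a match to the HNF4 motif CAAAGNNCA. HNF4A is a transcription factor of enterocytes.
Btnl2 (chr17:34354572-34354871, plus strand): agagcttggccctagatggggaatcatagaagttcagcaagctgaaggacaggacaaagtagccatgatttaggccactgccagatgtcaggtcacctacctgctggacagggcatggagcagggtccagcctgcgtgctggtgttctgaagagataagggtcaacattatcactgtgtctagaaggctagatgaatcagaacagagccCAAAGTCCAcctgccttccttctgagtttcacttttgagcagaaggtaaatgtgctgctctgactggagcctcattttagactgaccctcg
Btnl1 (chr17:34376882-34377181, plus strand): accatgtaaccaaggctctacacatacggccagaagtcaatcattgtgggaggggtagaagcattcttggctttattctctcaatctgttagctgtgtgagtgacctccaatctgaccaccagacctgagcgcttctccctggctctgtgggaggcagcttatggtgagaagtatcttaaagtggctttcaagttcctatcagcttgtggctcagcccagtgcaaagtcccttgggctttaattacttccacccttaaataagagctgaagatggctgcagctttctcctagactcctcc
Btnl4 (chr17:34475888-34476187, minus strand): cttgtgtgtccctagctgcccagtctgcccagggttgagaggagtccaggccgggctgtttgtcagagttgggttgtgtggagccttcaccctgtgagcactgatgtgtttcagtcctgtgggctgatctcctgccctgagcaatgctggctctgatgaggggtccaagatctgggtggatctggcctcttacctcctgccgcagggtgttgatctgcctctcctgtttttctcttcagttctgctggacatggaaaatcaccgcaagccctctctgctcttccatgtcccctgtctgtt
Btnl6 (chr17:34517303-34517602, minus strand): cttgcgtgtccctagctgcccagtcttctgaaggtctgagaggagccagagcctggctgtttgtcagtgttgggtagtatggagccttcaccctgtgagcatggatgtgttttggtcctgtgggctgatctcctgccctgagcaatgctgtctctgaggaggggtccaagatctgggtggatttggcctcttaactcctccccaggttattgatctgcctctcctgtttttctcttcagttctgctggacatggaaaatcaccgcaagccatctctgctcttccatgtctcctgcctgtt

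Both strands were searched for CAAAGNNCA and for the CDX motif TTTATNG (CDX1 and CDX2 are homeobox factors of the gut epithelium). The HNF4 motif was found in the windows of Btnl2 (bases 210 to 218) and Btnl9 (bases 140 to 148), and in 6.36% of 32851 promoter windows. The CDX motif, held by 10.91% of windows, was found in none of the 6. The Btnl4 and Btnl6 windows, both from within the gene spans, matched at 275 of 302 aligned positions (91.1%), whereas the Btnl2 and Btnl1 windows matched at 52.5%, within the 45.2% to 53.1% of all pairs other than Btnl4 with Btnl6.

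In the tissue and IEC tables, the deposited counts of Btnl4 and Btnl6 were fractional in every library and those of Btnl5-ps in 26 of 27 tissue and 16 of 16 IEC libraries, as estimated counts are where reads fit more than 1 gene. Btnl9 was fractional in 25 of the 26 tissue libraries with counts, Btnl1 and Btnl2 were whole in every library, and no count of the 7 genes was fractional in the IEL table. Of libraries with counts, Btn1a1 was fractional in 13 of 27 tissue and 5 of 13 IEC ones. Btn2a2 was fractional in 10 of 15 and 3 of 9. The study's methods give a read length of 100 bases, a number that the column names of the IEL table also carry, whereas those of the tissue and IEC tables carry 33, and their read length is not otherwise given in the sources used here. Over stretches of 100 bases, the transcripts of Btnl4 and Btnl5-ps shared 55 (2.41% of those of Btnl4), and no other pair of these 8 genes shared any. Over stretches of 33 bases, Btnl4 shared 357 with Btnl5-ps (15.2% of its own) and 132 with Btnl6 (5.63%), Btnl6 shared 160 with Btnl5-ps (9.31%), Btnl9 shared 1 with Btn1a1, and Btnl1 and Btnl2 shared none with any of the others. Values of Btnl4, Btnl6 and Btnl5-ps are therefore uncertain as to how reads were divided among them. Stretches shared with genes beyond these 8 were not counted. The fractional counts of Btnl9, Btn1a1 and Btn2a2 thus leave their values uncertain too.

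In WT whole tissue, 4 genes of the block were higher in SI than in colon and 2 others were higher in colon. Of the 7 genes, 6 passed the count minimum and all 6 were called, where 27.6% of 15162 genes tested were called (1814 higher and 2371 lower in colon). The median log2 fold change was -1.41 for the 6 genes and -0.03 for all genes tested.

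Btnl2 ranged from 24.0 to 103.7 CPM in the 7 WT SI libraries (median 56.6). In the 6 WT colon libraries it ranged from 0.65 to 2.41 CPM (median 1.31). Every SI library lay far above every colon library, and the log2 fold change (colon over SI) was -5.24 (SE 0.40, edgeR FDR 1.1e-07).

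Btnl1 ranged from 60.6 to 167.5 CPM in WT SI (median 130.1) and from 15.3 to 42.1 CPM in WT colon (median 24.6), again with no overlap (log2 fold change -2.25, SE 0.26, edgeR FDR 8.5e-06). Btnl6, the partner of Btnl1, ranged from 74.6 to 277.6 CPM (median 177.9) in SI and from 36.8 to 48.9 CPM (median 43.3) in colon, a log2 fold change of -2.11 (SE 0.24). Btnl4 differed least, at 32.8 to 75.8 CPM in SI (median 54.0) and 28.3 to 37.9 in colon (median 33.2), and its groups overlapped. Its log2 fold change was -0.71 (SE 0.18, edgeR FDR 0.00503).

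The genes off chromosome 17 ran the other way. Btn1a1 ranged from 0.11 to 0.61 CPM in WT SI (median 0.28) and from 1.03 to 8.64 CPM in WT colon (median 5.81), without overlap, a log2 fold change of 4.12 (SE 0.49, edgeR FDR 8.5e-06). Btnl9 ranged from 0 to 0.79 CPM in SI (median 0.44) and from 1.10 to 1.56 CPM in colon (median 1.18), a log2 fold change of 1.43 (SE 0.36, edgeR FDR 0.00443). Btn2a2 held 9 counts over the 7 SI libraries and 6 over the 6 colon libraries and was not tested.

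The calls of Btnl1, Btnl2, Btnl6, Btnl9 and Btn1a1 stood in each of 23 alternatives to the test, filter, scaling and set of libraries. That of Btnl4 stood in 22 and was lost without both WT SI libraries high in Car1, where its log2 fold change was -0.54 (edgeR FDR 0.0227, under 1.5-fold). SI library 964950, low in Fabp6 and at 83.5 CPM of the proximal gene Gata4, was also the highest of the WT SI libraries in Btnl2. The lowest was 964952, at 24.0 CPM of Btnl2 and 15.1 CPM of Gata4.

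**Figure D1:**
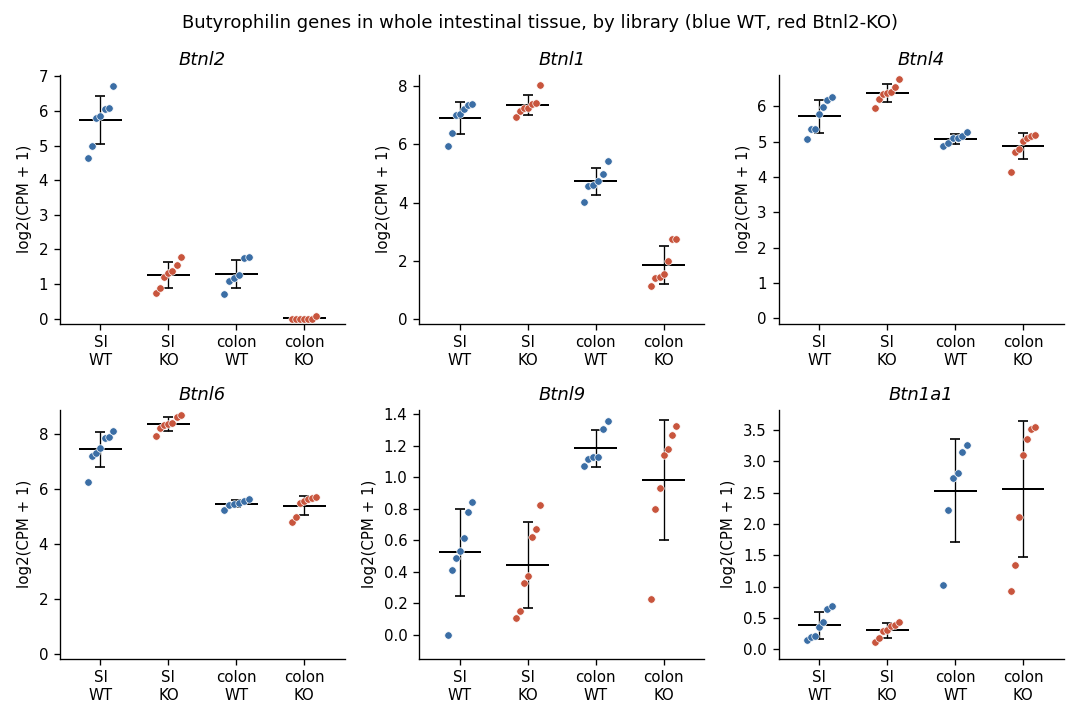
Level of 6 genes in whole tissue as log2(CPM + 1), 1 point per library (7 SI WT, 7 SI Btnl2-KO, 6 colon WT and 7 colon Btnl2-KO), with the mean and SD of the log2 values as lines. Btnl1 in the colon drops from 15.3 to 42.1 CPM in WT to 1.21 to 5.76 CPM in Btnl2-KO libraries, while Btnl4 and Btnl6 of the same libraries overlap.

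Per kb of transcript, which allows genes to be compared with each other, the levels in WT SI tissue were ordered Btnl6 (106.1 ± 38.9 CPM per kb, SD, n = 7), Btnl1 (59.5 ± 19.0), Btnl4 (30.5 ± 9.50) and Btnl2 (22.4 ± 10.3). Btnl4 and Btnl2 lay within their spread. In WT colon the order was Btnl6 (24.8 ± 2.32, SD, n = 6), Btnl4 (18.7 ± 1.92), Btnl1 (12.7 ± 4.29), Btn1a1 (1.60 ± 0.82), Btnl2 (0.60 ± 0.28) and Btnl9 (0.24 ± 0.04). Btnl2 thus stood above Btn1a1 in SI and below it in colon.

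Btnl2-KO and WT SI tissue were compared next. The targeted gene, Btnl2, ranged from 0.67 to 2.46 CPM in the 7 Btnl2-KO SI libraries (median 1.48) against 24.0 to 103.7 in WT, with no overlap. Over the pooled counts it was 42.7-fold lower (95% interval 36.5 to 50.3, counting error only), and its log2 fold change was -5.29 (SE 0.36, edgeR FDR 1.8e-06). Of the 4 members tested it was the 1 called, where 0.0202% of 14866 genes were called, 3 in all.

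Btnl6 ranged from 240.6 to 411.8 CPM in Btnl2-KO SI (median 329.0) and 74.6 to 277.6 in WT (median 177.9), with overlap, and its log2 fold change was 0.83 (SE 0.23, edgeR FDR 0.113). Btnl4 ranged from 60.6 to 107.5 CPM (median 82.7) against 32.8 to 75.8 (median 54.0), a log2 fold change of 0.63 (SE 0.18, edgeR FDR 0.117). Neither passed the threshold here, but both were called higher by DESeq2 (adjusted p 0.0189 and 0.0313) and when all tissue libraries shared 1 fit (edgeR FDR 0.0214 and 0.0345).

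Btnl1 stood at 120.3 to 262.2 CPM in Btnl2-KO SI (median 151.8) and 60.6 to 167.5 in WT, with overlap, a log2 fold change of 0.39 (SE 0.22, 95% interval -0.05 to 0.83, edgeR FDR 0.296). The summed level of 12 pan-epithelial genes was 14870 to 19820 CPM in Btnl2-KO and 9945 to 18980 in WT SI libraries, and its part in these values was not tested. Per 1000 pan-epithelial counts, Btnl1 had medians of 8.37 and 8.38 in Btnl2-KO and WT, and Btnl6 of 18.5 and 12.7. Without the 2 SI libraries low in Fabp6, the log2 fold changes of Btnl6 and Btnl4 were 0.73 and 0.49, and Btnl2 alone was called. Without the 2 WT libraries high in Car1 they were 1.08 and 0.81, and both were called (edgeR FDR 0.0312 and 0.0356). The calls of Btnl6 and Btnl4 thus turned on which libraries entered and, as given above, on the test and fit.

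In the colon, Btnl1 fell together with the targeted gene. Btnl2 held 170 counts over the 6 WT colon libraries and 1 count over the 7 Btnl2-KO ones, 6 of which were at 0. That is a pooled ratio of 184-fold, with a counting interval of 33.1 to 7280, and both groups were low at this depth (edgeR FDR 1.8e-04).

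Btnl1 ranged from 15.3 to 42.1 CPM in WT colon (median 24.6). In Btnl2-KO colon it ranged from 1.21 to 5.76 CPM (median 1.93). The highest Btnl2-KO library stood under the lowest WT one, and the log2 fold change was -3.14 (SE 0.36, edgeR FDR 0.00163), or 8.83-fold lower. Of the 6 members tested in the colon, Btnl1 and Btnl2 were called, and they were the 2 genes lower in Btnl2-KO among the 4 called of 14871 tested (0.0269%). Both calls stood in each of 21 alternatives, in which the log2 fold change of Btnl1 ran from -3.40 to -2.97 with an FDR of at most 0.00913.

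The other members in the colon were not called. Btnl4, the next gene of the block, ranged from 16.6 to 35.2 CPM in Btnl2-KO (median 31.6) and 28.3 to 37.9 in WT, a log2 fold change of -0.18 (95% interval -0.47 to 0.11). Btnl6 ranged from 26.9 to 51.2 CPM (median 46.0) against 36.8 to 48.9, a log2 fold change of -0.04 (95% interval -0.32 to 0.23). Btnl9 stood at 0.17 to 1.5 CPM and Btn1a1 at 0.91 to 10.7 CPM in Btnl2-KO colon, with log2 fold changes of -0.30 (SE 0.30) and 0.19 (SE 0.54), and their groups overlapped. The median log2 fold change of the 6 members tested was -0.24, against 0.01 over all genes tested.

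Markers of the cells of the colon were read beside this result. The pan-epithelial sum was 11000 to 16230 CPM in Btnl2-KO and 11350 to 12940 in WT colon, and per 1000 of these counts Btnl1 stood at 0.093 to 0.474 and 1.18 to 3.28, again without overlap. Summed endothelial (137.0 to 178.2 and 126.4 to 175.9 CPM), myeloid (59.9 to 194.6 and 80.1 to 225.1), B cell (9.57 to 48.1 and 6.55 to 67.4), smooth muscle (1653 to 4439 and 2955 to 3951), αβ T cell (2.42 to 7.37 and 3.01 to 7.05, from 1 gene), adipocyte (0.42 to 26.2 and 3.06 to 17.4) and γδ IEL markers (20.5 to 61.0 and 21.2 to 53.4, from 8 of 10 genes) overlapped between Btnl2-KO and WT. The γδ receptor genes Trdc and Trgc1 were the 2 without values, so the last sum was not specific to γδ cells. The part of these cells was not tested.

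The colon libraries at the ends of the Btnl1 range were also read for Btn1a1 and Cdx2. The WT library highest in Btnl1 (964934, 42.1 CPM) was the highest in Btn1a1 (8.64) and in Cdx2 (174.2), and the lowest (964936, 15.3 CPM) was the lowest in Btn1a1 (1.03), Btnl2 (0.65) and Cdx2 (39.1). Of the Btnl2-KO libraries, 964928 and 964925 were the highest in Btnl1 (5.76 and 5.73 CPM), in Btn1a1 (10.7 and 10.4) and in Cdx2 (142.1 and 139.7). The order was not shared throughout, as the Btnl2-KO library 964931 stood below 964930 in Btnl1 (1.93 and 2.96 CPM) and above it in Btn1a1 (9.29 and 7.57). Cdx2 itself ranged from 41.8 to 142.1 CPM in Btnl2-KO and from 39.1 to 174.2 in WT colon (log2 fold change -0.03, SE 0.34). The labels do not give the site along the colon, and its part was not tested.

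Whether the Btnl2-KO change differed between colon and SI was tested as an interaction over the 27 tissue libraries. For Btnl1 the difference (colon minus SI) was -3.52 on the log2 scale (SE 0.42, edgeR FDR 5.1e-05), and it was called in each of 35 alternatives, from -3.82 to -3.37, among them the fits without the libraries low in Fabp6 and without those high in Car1. It was 1 of 3 genes called of 15540 tested (0.0193%). The differences for Btnl4 (-0.80, SE 0.25, edgeR FDR 0.307), Btnl6 (-0.87, SE 0.28, edgeR FDR 0.307) and Btnl2 (-1.29, SE 1.74, edgeR FDR 0.608) were not called. Without the 2 WT libraries high in Car1, those of Btnl4 and Btnl6 were called (-1.02 and -1.15, edgeR FDR 0.0434 and 0.0409).

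**Figure D2:**
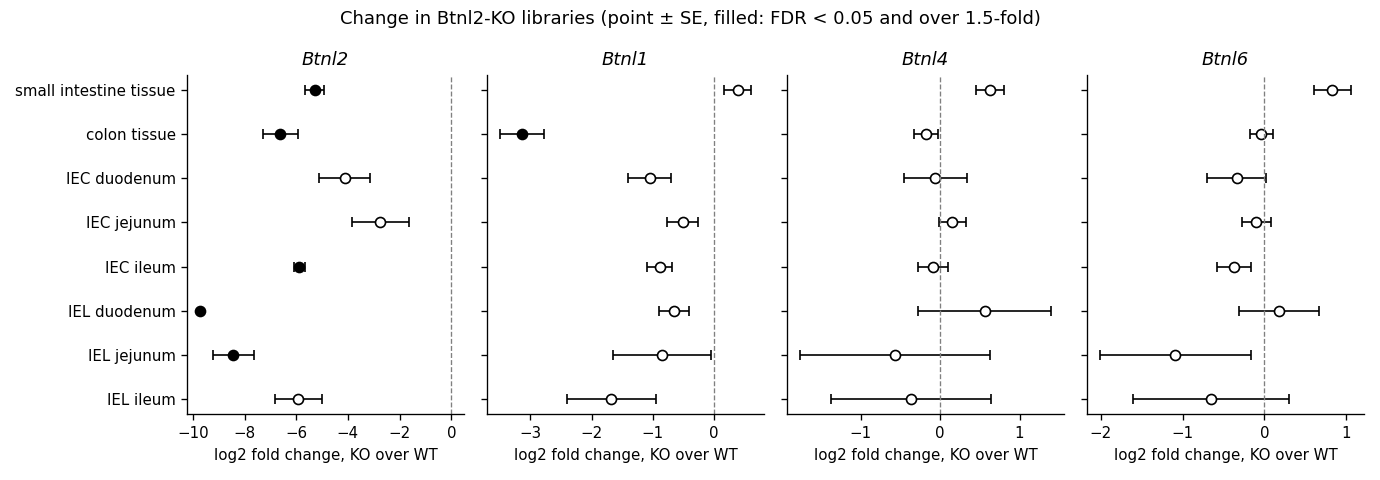
Log2 fold change of Btnl2, Btnl1, Btnl4 and Btnl6 in Btnl2-KO over WT libraries in the 8 comparisons, with SE bars, filled where called (FDR < 0.05 and over 1.5-fold); each panel has its own scale. Btnl2 of duodenal IELs (all Btnl2-KO libraries at 0) has no SE, and its position, like that of Btnl2 in colon and jejunal IELs, depends on the prior count. Btnl1 is called in colon tissue (-3.14) and has open points from 0.39 to -1.68 elsewhere.

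In the IEC fraction, the targeted gene checked the labels first. In the duodenum, Btnl2 stood at 39.6, 46.5 and 65.8 CPM in WT and at 0.34 and 5.48 in Btnl2-KO libraries, the higher being 1003459. In the jejunum it stood at 25.7, 48.2 and 51.9 CPM in WT and at 0.59, 0.60 and 18.8 in Btnl2-KO, the last being 1003474. In the ileum it stood at 25.1 and 26.3 CPM in WT and at 0.37, 0.42 and 0.49 in Btnl2-KO. No Btnl2-KO library reached the lowest WT library of its segment, but the libraries 1003459 and 1003474 stood far above the other 6.

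Btnl2 was called in the ileum (log2 fold change -5.88, SE 0.21, edgeR FDR 0.00143), the 1 gene called of 12925 (0.00774%) and the 1 of 5 members tested. That call stood without 1003481 (-5.85, edgeR FDR 5.8e-04), and was lost without the WT library 1003488 (edgeR FDR 0.113) and with all IEC libraries in 1 fit (-5.87, edgeR FDR 0.987). In the duodenum the log2 fold change was -4.13 (SE 0.98, edgeR FDR 1.0), and in the jejunum -2.74 (SE 1.11, edgeR FDR 0.568). Neither segment had a called gene, 0% of 12584 and 0% of 12543. There, edgeR gave 154 and 1054 genes at an unadjusted p under 0.05, DESeq2 called 0 and 1 genes, and limma-voom called 1 in each. Without 1003474, jejunal Btnl2 was called (-6.13, edgeR FDR 0.00693), and without 1003459 the duodenal log2 fold change was -7.20 (edgeR FDR 0.299).

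Btnl1 stood at 115.9, 135.2 and 206.2 CPM in WT and at 60.9 and 86.3 CPM in Btnl2-KO duodenal IECs. In the jejunum it stood at 80.4, 105.9 and 141.2 CPM in WT and at 61.6, 68.6 and 97.6 in Btnl2-KO, the last being again 1003474. In the ileum it stood at 80.8 and 102.3 CPM in WT and at 40.4, 50.6 and 58.1 in Btnl2-KO. The groups did not overlap in duodenum and ileum and overlapped in the jejunum through 1003474 alone. With so few libraries, groups can separate without a difference, and the share of all genes that did so was not counted.

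None of these Btnl1 values passed the threshold over all genes. The log2 fold changes were -1.05 (SE 0.35) in the duodenum, -0.51 (SE 0.25) in the jejunum and -0.89 (SE 0.20) in the ileum, with edgeR FDRs of 1.0, 0.568 and 0.90. Without 1003459 the duodenal value was -0.82 (SE 0.45), without 1003474 the jejunal one -0.74 (SE 0.23) and without 1003481 the ileal one -0.90 (SE 0.20), and none was called. Their normal 95% intervals were -1.73 to -0.36, -1.0 to -0.02 and -1.27 to -0.50, each short of the change measured in the colon. Such intervals are too narrow for groups this small. The jejunal one leaves out 0 although its unadjusted edgeR p was 0.0733. IECs and colon tissue were sequenced as separate tables, so this difference was not tested. Between segments of the IEC table, differences of the Btnl1 change were 0.53 (SE 0.41, jejunum against duodenum), 0.17 (SE 0.43, ileum against duodenum) and -0.36 (SE 0.41, ileum against jejunum), and none was called.

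No member was called in these 3 interactions. Called genes made up 0% of 13344 in each, with 818, 372 and 300 genes at an unadjusted p under 0.05 in edgeR, 0, 0 and 1 genes called by DESeq2 and 0 by limma-voom. Without the libraries 1003459, 1003474 and 1003481 no member was called either.

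Btnl4 and Btnl6 overlapped between genotypes in each segment. Btnl4 ranged from 34.5 to 66.0 CPM over the 8 WT and from 29.5 to 64.2 over the 8 Btnl2-KO IEC libraries, and Btnl6 from 93.3 to 180.8 and 85.9 to 121.1. Their log2 fold changes ran from -0.09 to 0.15 for Btnl4 and from -0.37 to -0.10 for Btnl6, all with an edgeR FDR of 0.761 or more. Without 1003459 the duodenal values were -0.74 (SE 0.43) for Btnl4 and -0.62 (SE 0.46) for Btnl6, neither of them called. Btn1a1 stood at 0 to 1.08 CPM, Btnl9 at 0 to 0.26 and Btn2a2 at 0 to 0.15, and of these Btn1a1 passed the count minimum in the ileum (log2 fold change -0.62, SE 0.93).

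**Figure D3:**
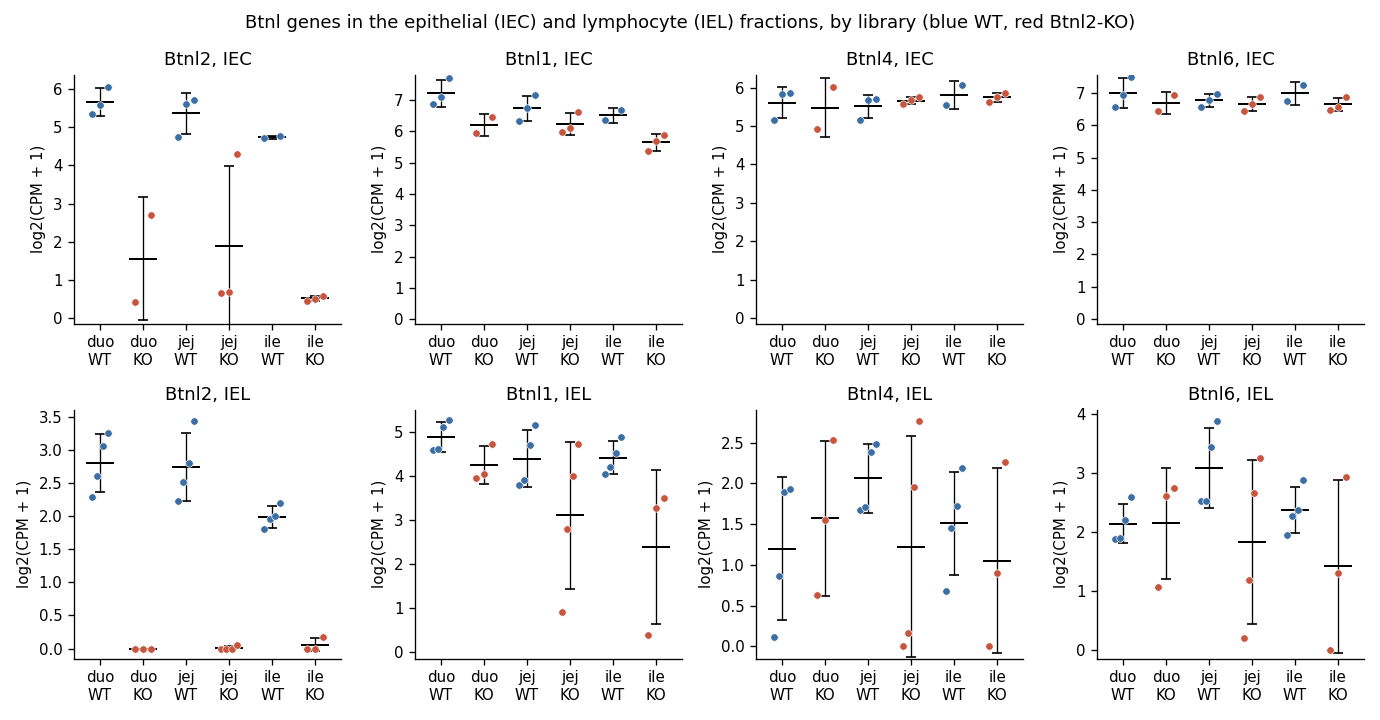
Level of 4 genes in the IEC fraction (top) and in sorted γδ IELs (bottom) as log2(CPM + 1), 1 point per library, with the mean and SD of the log2 values as lines; the tables were made separately and their levels are not on a shared scale. WT Btnl2 runs from 25.1 to 65.8 CPM in IECs and from 2.47 to 9.79 CPM in IELs, and the Btnl2-KO points at 5.48 and 18.8 CPM in the top left panel are the libraries 1003459 and 1003474.

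Along the WT small intestine, no member was called between IEC segments. Of 13046 genes tested, 0.767% were called for jejunum against duodenum, 6.59% for ileum against duodenum and 0.644% for ileum against jejunum. Btnl2 had log2 fold changes of -0.27 (SE 0.28), -0.98 (SE 0.33, edgeR FDR 0.13) and -0.70 (SE 0.33) in these comparisons. Btnl1 had -0.48 (SE 0.28), -0.73 (SE 0.31, edgeR FDR 0.244) and -0.25 (SE 0.31). Btnl4 and Btnl6 had values from -0.27 to 0.31. Btn1a1, at 0, 0 and 0.23 CPM in the duodenum and 0.74 and 0.77 in the ileum, had a log2 fold change of 3.26 (SE 0.94, edgeR FDR 0.0721). Limma-voom called Btn1a1, and it also called Btnl2 lower in ileum than in duodenum (-0.83, adjusted p 0.0436).

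Per kb, Btnl6 and Btnl1 were close in WT duodenal IECs (38.2 ± 3.34% and 37.0 ± 4.72% of the summed level of the 7 genes, SD, n = 3). In the ileum Btnl6 held 46.1 ± 1.60% and Btnl1 27.4 ± 1.29% (SD, n = 2). Btnl4 held 14.6 ± 3.60% in the duodenum and 19.9 ± 0.89% in the ileum, and Btnl2 10.2 ± 1.38% and 6.43 ± 1.17%. The summed level thus was shared mainly between Btnl6 and Btnl1 in each segment, with these values given as a description.

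**Figure D4:**
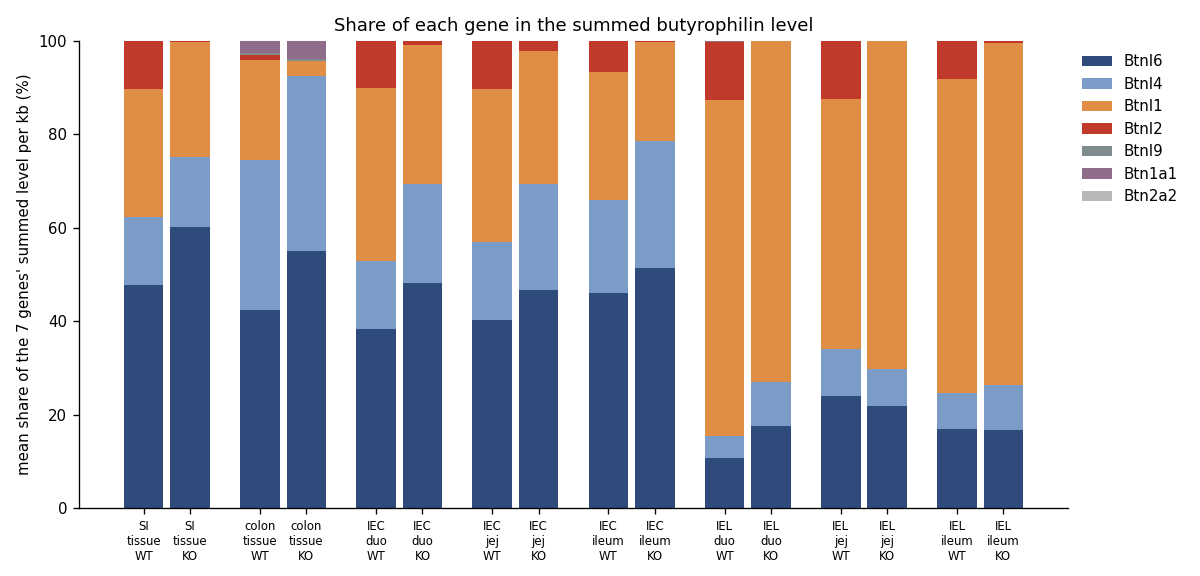
Mean share of each gene in the summed level of the 7 genes (CPM per kb of the longest transcript) for each group of bulk libraries. Btnl1 holds 21.3% in WT and 3.08% in Btnl2-KO colon, and in sorted IELs it holds 53.3% to 73.2%; how reads were divided among Btnl4, Btnl6 and Btnl5-ps is uncertain.

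Sorted γδ IELs held low levels of the same 4 genes. Btnl2 stood at 3.87, 5.05, 7.33 and 8.55 CPM in WT duodenal libraries, at 3.66, 4.69, 5.94 and 9.79 in jejunal and at 2.47, 2.87, 2.99 and 3.60 in ileal ones. In Btnl2-KO IELs it held 0 counts over 3 duodenal libraries, 1 count over 4 jejunal and 2 counts over 3 ileal ones. At a floor of 3 counts over the group, it was at least 103-fold lower in the duodenum, and the pooled ratios were 600-fold in the jejunum (counting interval 108 to 23700) and 71.2-fold in the ileum (19.7 to 588).

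Btnl2 was called in duodenal IELs (edgeR FDR 0.0124) and in jejunal IELs (edgeR FDR 0.026), the 1 gene called of 12680 (0.00789%) and of 12594 (0.00794%), among 4 members tested in each. In the ileum it was not called (edgeR FDR 0.263), where 0% of 12604 genes were called by edgeR, with 1108 at an unadjusted p under 0.05, and DESeq2 and limma-voom called 227 and 1207 genes, Btnl2 among them. The duodenal call was lost without the Btnl2-KO library 1105576 or 1105578, and the jejunal call without any 1 of the 8 libraries or without both 1105592 and 1105593 (edgeR FDR 0.297). The ileal value was called without the WT library 1105587.

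Btnl1 was read in the IELs beside the epithelial RNA of each library. It stood at 14.4, 15.6 and 25.6 CPM in Btnl2-KO and at 23.1, 23.4, 33.4 and 37.4 in WT duodenal IELs. In the jejunum it stood at 0.88, 5.94, 15.0 and 25.6 CPM in Btnl2-KO and at 12.9, 14.0, 25.1 and 34.9 in WT. In the ileum it stood at 0.30, 8.65 and 10.3 CPM in Btnl2-KO and at 15.4, 17.3, 22.1 and 28.5 in WT.

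The lowest values, 0.88 and 0.30 CPM, belonged to the libraries 1105592 and 1105585, the lowest in pan-epithelial genes, and in CPM the groups overlapped in the duodenum and jejunum. The pan-epithelial sum was 3313 to 5621 CPM in Btnl2-KO and 3227 to 5187 in WT duodenal IELs, 602 to 5347 and 1998 to 5461 in jejunal, and 992 to 3548 and 3383 to 8826 in ileal ones. Per 1000 pan-epithelial counts, Btnl1 stood at 2.77 to 4.72 in Btnl2-KO and 6.45 to 7.25 in WT duodenal IELs and at 1.46 to 4.78 and 5.90 to 6.88 in jejunal ones, without overlap in either, and at 0.298 to 3.09 and 2.62 to 4.56 in ileal ones, with overlap. These ratios are a description, with no test, and the share of all genes that separated in this way was not counted. The log2 fold changes of Btnl1 were -0.65 (SE 0.25), -0.85 (SE 0.80) and -1.68 (SE 0.73), with edgeR FDRs of 0.997, 0.706 and 0.553. With the pan-epithelial level as a covariate they were -0.86 (SE 0.22), -0.47 (SE 0.16) and -0.37 (SE 0.54), with edgeR FDRs of 1.0, 0.44 and 0.806. Without 1105592 the jejunal value was -0.46 (SE 0.51), and without both 1105592 and 1105593 it was -0.09 (SE 0.43). Without 1105585 the ileal value was -1.14 (SE 0.31, edgeR FDR 0.306).

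Btnl4 stood at 0 to 5.78 CPM and Btnl6 at 0 to 13.8 CPM over the 22 IEL libraries, and neither was called in any segment (log2 fold changes from -1.09 to 0.56). The lowest of these, jejunal Btnl6, was -0.24 (SE 0.49) without 1105592 and 1105593. Btnl9, Btn1a1 and Btn2a2 held at most 5 counts in any group of IEL libraries and were not tested. No member was called in the 3 IEL interactions, where 0% of 13360 genes were called in each. EdgeR gave 647, 765 and 1926 genes at an unadjusted p under 0.05 there, DESeq2 called 2, 2 and 1 genes, and limma-voom called 0, 0 and 2993, the last for ileum against jejunum.

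Between segments of WT IELs, Btnl6 and Btnl2 were each called once. Btnl6 stood at 2.68, 2.72, 3.61 and 5.06 CPM in the duodenum, at 4.74, 4.77, 9.84 and 13.8 in the jejunum and at 2.87, 3.82, 4.21 and 6.38 in the ileum. It was higher in jejunum than in duodenum (log2 fold change 1.22, SE 0.38, edgeR FDR 0.0245), 1 of 4 members tested, where 22.5% of 12899 genes were called, and the call was lost without any 1 of 4 libraries. Btnl2 was lower in ileum than in jejunum (log2 fold change -1.0, SE 0.33, edgeR FDR 0.0322), again 1 of 4, where 21.9% were called, and this call was lost without any 1 of 5 libraries. For ileum against duodenum, where 2.11% were called, no member was (Btnl2 -1.04, SE 0.33, edgeR FDR 0.155). Each call was 1 of 4 members, near the share of all genes called.

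The 2 fractions were set side by side as a description, although their tables differ in the age of the mice and in the number in their column names. Relative to epithelial RNA, WT IECs held a median of 9.88 counts of Btnl1 per 1000 pan-epithelial counts (6.42 to 15.0, 8 libraries) and WT IELs 6.42 (2.62 to 7.25, 12 libraries), a ratio of 1.54. The same ratio was 2.45 for Btnl2, 6.95 for Btnl4, 10.5 for Btnl6 and 4.99 for Btnl5-ps. Relative to Epcam alone, which γδ IELs also express, the ratios were 2.73, 4.34, 12.6, 15.6 and 9.19. Among the genes given here, those with fractional counts in the IEC table and whole ones in the IEL table had the largest ratios, and the part of the counting was not tested. Other epithelial genes also shifted between the tables. Per 1000 pan-epithelial counts, WT duodenal medians in IECs and IELs were 80.5 and 13.3 for Hnf4a and 25.9 and 10.1 for Hnf4g. They were 4.57 and 13.1 for Cdx1 and 6.73 and 5.03 for Cdx2. Whether the members shifted beyond such differences between tables was not tested. Per kb, Btnl1 made up 71.9 ± 5.32% of the members' summed level in WT duodenal, 53.3 ± 0.32% in jejunal and 67.1 ± 8.46% in ileal IELs (SD, n = 4 each).

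Genes whose level followed a member most closely were named as a description, by Pearson's r of log2(CPM + 1). The points share libraries and segments, no p is given, and with this few libraries high values arise for many genes. Over the 8 WT IEC libraries and 11461 genes, Btnl1 was most like Acy1 (0.992), Tkfc (0.987) and Aqp11 (0.987), and Btnl2 most like Vwa1 (0.992), Tmem86b (0.992) and Tymp (0.983). Btnl4 was most like Prdm4, Rnf141 and Htt (0.952 to 0.972), and Btnl6 most like Tox4 (0.993), Tor4a and Vps26b. Between members, Btnl1 with Btnl2 gave 0.901 and Btnl4 with Btnl6 0.678, whereas Btnl1 with Btnl4 gave 0.083.

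Over the 12 WT IEL libraries and 11965 genes, the leading genes were others. Btnl1 was most like Pcsk5, Ces2e and Dgat2 (0.961 to 0.974), Btnl2 most like Tmem86a, Dnase1 and H2-Q1 (0.918 to 0.931), Btnl4 most like Lancl2, Serinc3 and Atl2 (0.963 to 0.972) and Btnl6 most like Lrrc59, Lpcat3 and Pdss2 (0.932 to 0.949). Btnl4 with Btnl6 gave 0.83, and Btnl1 with Btnl2 0.703.

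Other genes of the family and of its partners were read from fixed lists. Of 18 other butyrophilin and Skint genes, 2 were tested in tissue (Btnl5-ps and the erythroid gene Ermap) and 1 in IECs and IELs (Btnl5-ps), and none was called in any of the 8 Btnl2-KO comparisons. Btnl5-ps had a log2 fold change of 0.70 (SE 0.21, edgeR FDR 0.123) in SI and -0.13 (SE 0.09) in colon tissue. In WT tissue both were called lower in colon, Btnl5-ps at -0.68 (SE 0.21) and Ermap at -0.85 (SE 0.27).

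On the receptor side, 4 of the 18 genes of the γδ T cell receptor and CD3 list were tested (Cd3d, Cd3e, Cd3g and Cd247, the CD3 chains), and none was called in the 8 Btnl2-KO comparisons. In WT tissue all 4 were called lower in colon, with log2 fold changes of -3.35 for Cd3e (SE 0.31), -3.29 for Cd3g, -2.05 for Cd247 and -1.86 for Cd3d. Between WT IEL segments, Cd3d was called lower in jejunum than in duodenum and Cd3e lower in ileum than in jejunum.

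Of the B7 family list, 4 to 8 of 8 genes were tested in each comparison and none was called in the 8 Btnl2-KO comparisons. In WT tissue, Vtcn1 was called higher in colon (log2 fold change 7.57, SE 0.77) and 5 genes lower, among them Pdcd1lg2 (-2.0, SE 0.26), Vsir (-0.75, SE 0.13) and the ligand gene Cd274 (-0.71, SE 0.20). In WT IELs, Cd274 and Icosl were called higher in jejunum than in duodenum (0.73 and 0.69) and lower in ileum than in jejunum (-1.0 and -0.86).

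All 4 epithelial transcription factors (Hnf4a, Hnf4g, Cdx1 and Cdx2) were tested, and none was called in the 8 Btnl2-KO comparisons. In WT tissue, Hnf4g (-2.32, SE 0.19) and Cdx2 (-1.08, SE 0.25) were called lower in colon and Cdx1 (0.59, SE 0.12) higher, while Hnf4a (-0.20, SE 0.10) was not called. Cdx1 was also called higher in ileal than in duodenal WT IECs.

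The single-cell libraries placed the UMIs of Btnl1 and Btnl2 in barcodes rich in epithelial RNA. Over all 12557 Btnl2-KO and 11437 WT deposited barcodes, the 7 genes held 257 UMIs (unique molecular identifiers), and over the 12337 and 11232 cells that held 500 genes or more and no more than 10% mitochondrial UMIs they held 101. Pairs of libraries shared 19 to 31 barcodes. Barcodes were split by the UMIs of the 11 pan-epithelial genes other than Epcam, since 33% to 41% of cells per library held an Epcam UMI. The limit of 10 such UMIs was chosen after the values were seen, doublets were not removed, and the libraries were summed over segments. There is 1 library per genotype and segment, so no test was made, and intervals cover counting error only.

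In WT libraries, 75 of 11437 barcodes held 10 or more epithelial UMIs (median depth 11655 UMIs, against 5020 in the rest). Of these 75, 22 held a Btnl2 UMI (29.3%, exact 95% interval 19.4% to 41.0%) and 32 a Btnl1 UMI (42.7%, 31.3% to 54.6%). Of the other 11362, 3 held Btnl2 (0.0264%) and 4 held Btnl1 (0.0352%), and the source of these UMIs was not tested. Of all 25 WT barcodes with Btnl2 and 36 with Btnl1, 7 and 8 also held Cd3e or Cd3g, against 11284 of all 11437 WT barcodes. Among the 30 cells with 10 or more epithelial UMIs that passed the filter, 6 held Btnl2 and 10 held Btnl1.

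In Btnl2-KO libraries, 59 of 12557 barcodes held 10 or more epithelial UMIs (median depth 10607). Btnl1 was found in 20 of the 59 (33.9%, 22.1% to 47.4%). Btnl2 was found in 1 of the 59 (1.69%, 0.0429% to 9.09%) and in 0 of the other 12498, a share of up to 0.024% at a floor of 3 counts (exact 95% upper bound 0.0295%).

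Btnl6 was found in 13 of 75 WT and 13 of 59 Btnl2-KO barcodes rich in epithelial RNA, and in 8 of 11362 and 3 of 12498 of the others. Btnl4 was found in 7 and 6 of the former and in 11 (0.0968%) and 12 (0.096%) of the latter, so that most barcodes with a Btnl4 UMI were low in epithelial RNA. Of the 18 barcodes per genotype with Btnl4, 12 also held Cd3e or Cd3g. Of all barcodes, 11284 of 11437 in WT and 12420 of 12557 in Btnl2-KO did. Btn2a2 held 1 UMI, and Btnl9 and Btn1a1 held 0.

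The reference used for the single-cell tables also listed LacZ, the reporter at the Btnl2 start codon. LacZ held 16, 11 and 21 UMIs in the duodenal, jejunal and ileal Btnl2-KO libraries and 0 in each WT library, where the same floor of 3 counts allows a share of up to 0.0747%, 0.0824% and 0.0794% of barcodes. The 48 UMIs lay in 44 barcodes, of which 4 of 59 (6.78%, exact 95% interval 1.88% to 16.5%) were rich in epithelial RNA and 40 of 12498 (0.32%, 0.229% to 0.436%) were not. Of the 44 barcodes, 41 also held Cd3e or Cd3g, as did 12420 of all 12557 Btnl2-KO barcodes. In WT libraries, by comparison, 22 of the 25 barcodes with Btnl2 were rich in epithelial RNA.

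**Figure D5:**
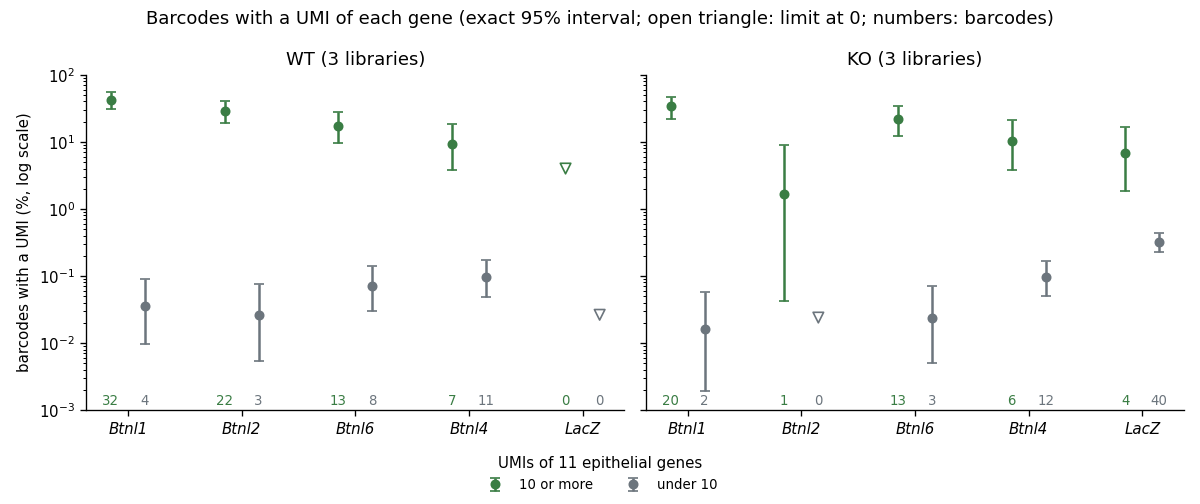
Share of barcodes with at least 1 UMI of each gene on a log scale, for barcodes with 10 or more (green) and under 10 (grey) UMIs of 11 pan-epithelial genes, in WT (left) and Btnl2-KO (right); bars are exact 95% intervals for counting error, open triangles the limit where no barcode held a UMI, and numbers the barcodes with one. Btnl1 and Btnl2 sit at 42.7% and 29.3% of the green WT barcodes and below 0.04% of the grey ones, while LacZ in Btnl2-KO is at 6.78% and 0.32%.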

How the data were processed

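RNA-sequencing of 65 bulk and 6 single-cell libraries was analysed from the deposited tables. For the bulk tables, the authors mapped reads with ArrayStudio to GRCm38 and deposited expected counts per gene, estimated with RSEM from sense-strand exon reads. For the single-cell tables, the authors deposited UMI counts per gene and barcode from Cell Ranger. One further column of per-sample values, whose number matched no label, was not used (1 column). Entrez identifiers were matched to RefSeq symbols; 100 had none and held 0.25% to 9.24% of counts per library.

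Expected counts were rounded and tested in R 4.3.3 with edgeR 4.0.16 (TMM, quasi-likelihood, Benjamini-Hochberg over all genes tested), keeping a gene where the number of libraries with 10 or more counts reached the smallest group's size. SEs are a log2 fold change over the root of F, and 95% intervals are normal, which is too narrow where groups are small. For Btnl2 where Btnl2-KO counts are near 0, the SE can fail to match the printed fold change and p. In the tissue interaction these were -1.29, SE 1.74 and an unadjusted edgeR p of 0.228. Btnl2-KO and WT were compared within each tissue or segment, WT sites within each table, and differences of the change as interactions. DESeq2 1.42.0, limma-voom (limma 3.58.1), other filters and scalings, and left-out libraries were alternatives, and code was tested on simulated data. Of 122 pairs of libraries of 1 group, none was identical or within sampling noise. Levels per kb used the longest transcript. Cells held 500 or more genes and no more than 10% mitochondrial UMIs. Depths were 15397757 to 38258478 counts in IECs, 13444964 to 30029485 in IELs and 13619314 to 21708727 in tissue. Named genes were the 7 members, at most 4 genes of lowest p per list and comparison, and the 3 most like genes per member. The members and lists were chosen with earlier results of these data known.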

Additional observations from a re-analysis of the deposited data

Results flagged for a closer look

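Btnl1 in the small intestine tissue of Btnl2-KO mice stood at 262 CPM in the library 964939, apart from the other 6 of the group, which reached at most 169 CPM. It was the 1 group with such a sample of 34 tested, where chance gives about 1 in 20. That library was also low in Fabp6 (435.6 CPM) and high in Gata4 (96.7 CPM), and the part of its site along the intestine was not tested.

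The Btnl2-KO change of Btnl1 differed between colon and small intestine tissue by -3.52 on the log2 scale (edgeR FDR 5.1e-05).

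LacZ, which no comparison of genotypes used, held 48 UMIs in the 3 Btnl2-KO single-cell libraries and 0 in the 3 WT ones.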

How the results depend on the processing

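Members called moved from 1 to 3 in small intestine tissue with DESeq2, with all tissue libraries in 1 fit and without the 2 WT libraries high in Car1, a choice made after seeing the data, which also moved the tissue interaction from 1 to 3. In jejunal IECs limma-voom called 1, and leaving out 1 library gave 0 to 1. In ileal IECs 1 became 0 with all libraries in 1 fit, and leaving out 1 library gave 0 to 1. In duodenal IELs leaving out 1 library gave 0 to 1. In jejunal IELs 1 became 0 with limma-voom and without the 2 libraries that stand apart, and leaving out any 1 library gave 0. In ileal IELs DESeq2, limma-voom and 1 fit of all libraries gave 1, and leaving out 1 gave 0 to 1. Among WT IEC segments, limma-voom called 1 for jejunum against duodenum and 2 for ileum against duodenum, where leaving out 1 library gave 0 to 1. Among WT IEL segments, jejunum against duodenum went from 1 to 0 with Btnl2-KO libraries included, and leaving out 1 gave 0 to 1. Ileum against duodenum gave 2 with the pan-epithelial covariate. Ileum against jejunum gave 2 with DESeq2, 0 with Btnl2-KO libraries included and 3 with the covariate, and leaving out 1 gave 0 to 2. The members' single-cell UMIs rose from 101 to 257 over all barcodes, and the IEC to IEL ratio of Btnl1 from 1.54 to 2.73 against Epcam alone. The causes were not tested. Of the log2 fold changes recomputed, 588 kept direction and side of the threshold, 23 gained a call and 28 lost one, and none reversed. Only members called or at an unadjusted p under 0.05 in the main fit were recomputed. Values near 0 were thus left out, and reversals were unlikely from the start. Depth limits Btnl2 in colon and IELs and the 3 genes off chromosome 17. No paired analysis was made, because each library has its own number and nothing ties libraries to an animal. The study divided each small intestine into segments, so libraries of different segments may share mice. Whether colon and SI tissue libraries share mice is not given. Comparisons between segments, and between colon and SI tissue, treated libraries as independent.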
